A study of Mus musculus with 18 samples.

Results

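The collagen genes of the mouse encode the chains of the main structural proteins of connective tissue. Members were the transcript clusters (the array's gene-level probe groups) whose only symbol on the platform was 1 of 41 listed collagen genes, taking the cluster with the highest mean where a gene had several. Of these 41 genes, 38 were measured, among 27030 genes in the whole table, and 37 of the 38 had a mean above 5.36 log2, the detection level, which was the 95th percentile of the means of 1078 olfactory receptor genes. Col10a1 lay below it. Col6a4 and Col7a1 share their cluster with another symbol, and these 2 genes and Col8a1 were not analysed here.

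Expression was measured in mammary tissue of female C57Bl/6 mice, with 6 arrays per group. Tumors came from mice given a pellet of 50 mg medroxyprogesterone acetate (MPA, a synthetic progestin) releasing over 90 days, from an age of 6 to 9 weeks, and the carcinogen DMBA (7,12-dimethylbenz[a]anthracene) in 6 gavages of 200 µL at 5 mg/mL, and were taken at 0.7 to 1 cm2. Hyperplastic mammary glands were exposed under the same protocol and had developed no tumor. The study says this of the glands and not of their mice. Normal mammary glands came from mice exposed to neither agent, so MPA and DMBA cannot be told apart in any comparison with them. Their age was not tied to that of the exposed mice in the sources used here. The study's methods count the replicates as mice of 1 experiment, so that p-values measure the spread between those mice.

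Collagen chains fold into triple helices in the endoplasmic reticulum, and the class of a collagen is set by what those helices build outside the cell. Fibrillar collagens form the ropes of the stroma, FACIT collagens (fibril-associated collagens with interrupted triple helices) sit on the surface of those ropes, type IV forms the sheet of the basement membrane under epithelium and endothelium, and type VI forms beaded microfibrils. In the mammary gland, fibroblasts make most fibrillar collagen, while epithelial, myoepithelial and endothelial cells rest on type IV.

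Deposited values are log2 expression after robust multi-array averaging (RMA), so a difference of 1 is a doubling. A gene was called higher or lower at an adjusted p under 0.05 from limma, fitted to all 18 arrays, with Benjamini-Hochberg adjustment across the 27030 genes. Array number, 6 per group, limits the precision. In bulk tissue, fewer cells of a type and less RNA per cell cannot be told apart.

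The tissue itself differed between groups. Adipocyte markers summed to 10.75 to 12.24 log2 in tumors, 13.95 to 14.79 in hyperplastic glands and 14.11 to 14.36 in normal glands, with 10 of 10 called lower in tumors against normal glands. Fibroblast markers summed to 12.59 to 13.33 in tumors, from 13.64 upward in hyperplastic glands and 14.04 to 14.25 in normal glands, with 8 of 12 called lower, Dpt among them, and 2 higher, Pdpn and Fbln2. Blood endothelial markers were called lower in 11 of 11, T cell markers in 8 of 8 and B cell markers in 7 of 7. Other lists were called higher in part, with basal epithelial markers in 3 of 6 (median difference 1.07, lowest -1.04), luminal epithelial markers in 3 of 11 (0.85), macrophage markers in 5 of 8 (0.64, with 1 called lower) and proliferation markers in 9 of 9 (2.19). Of all genes tested, 19.5% were called higher and 12.7% lower in this comparison. In the luminal and the basal list tumor 3 was nevertheless below every normal gland, with sums of 11.42 and 10.19, against lowest sums in normal glands of 12.55 and 11.33. Pericyte and smooth muscle markers were called higher in 1 of 11 and lower in 3. Skeletal muscle markers varied widely within groups, from 10.22 to 13.94 in hyperplastic glands. The part of these shifts in the collagen values was not tested.

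In tumors against normal glands, 9 of the 38 collagen genes were called higher (23.7%), where 19.5% of all genes tested were, and 4 were called lower (10.5%), where 12.7% of all genes were. Of all genes 9.24% lay higher and 7.0% lower in tumors with no overlap between the groups, and of the collagen genes 5 lay higher and 1 lower in that way. These shares lie near the background, so that the counts are no result about collagens as a set. Members differed within classes as well as between them, and no test compared the classes. The median difference was 0.38 in FACIT genes (5 of 9 called higher), 0.28 in basement membrane genes (2 of 6 higher), 0.08 in fibrillar genes (1 of 9 higher) and -0.41 in microfibril genes (3 of 5 lower), beside 0.04 over all genes; under centring on reference genes these became 0.11, 0.02, -0.19 and -0.67. The genes called higher were Col12a1, Col11a1, Col18a1, Col4a5, Col9a1, Col9a2, Col9a3, Col4a2 and Col16a1, and those called lower were Col15a1, Col6a1, Col6a2 and Col6a6. With arrays centred in this way, on 13 reference genes in place of the deposited scale, the median difference of all genes moved to -0.22 from 0.04, and 4 members were called higher (Col12a1, Col11a1, Col18a1, Col4a5) and 18 lower; 7 of those 13 reference genes were themselves called higher in tumors on the deposited scale.

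**Figure D1:**
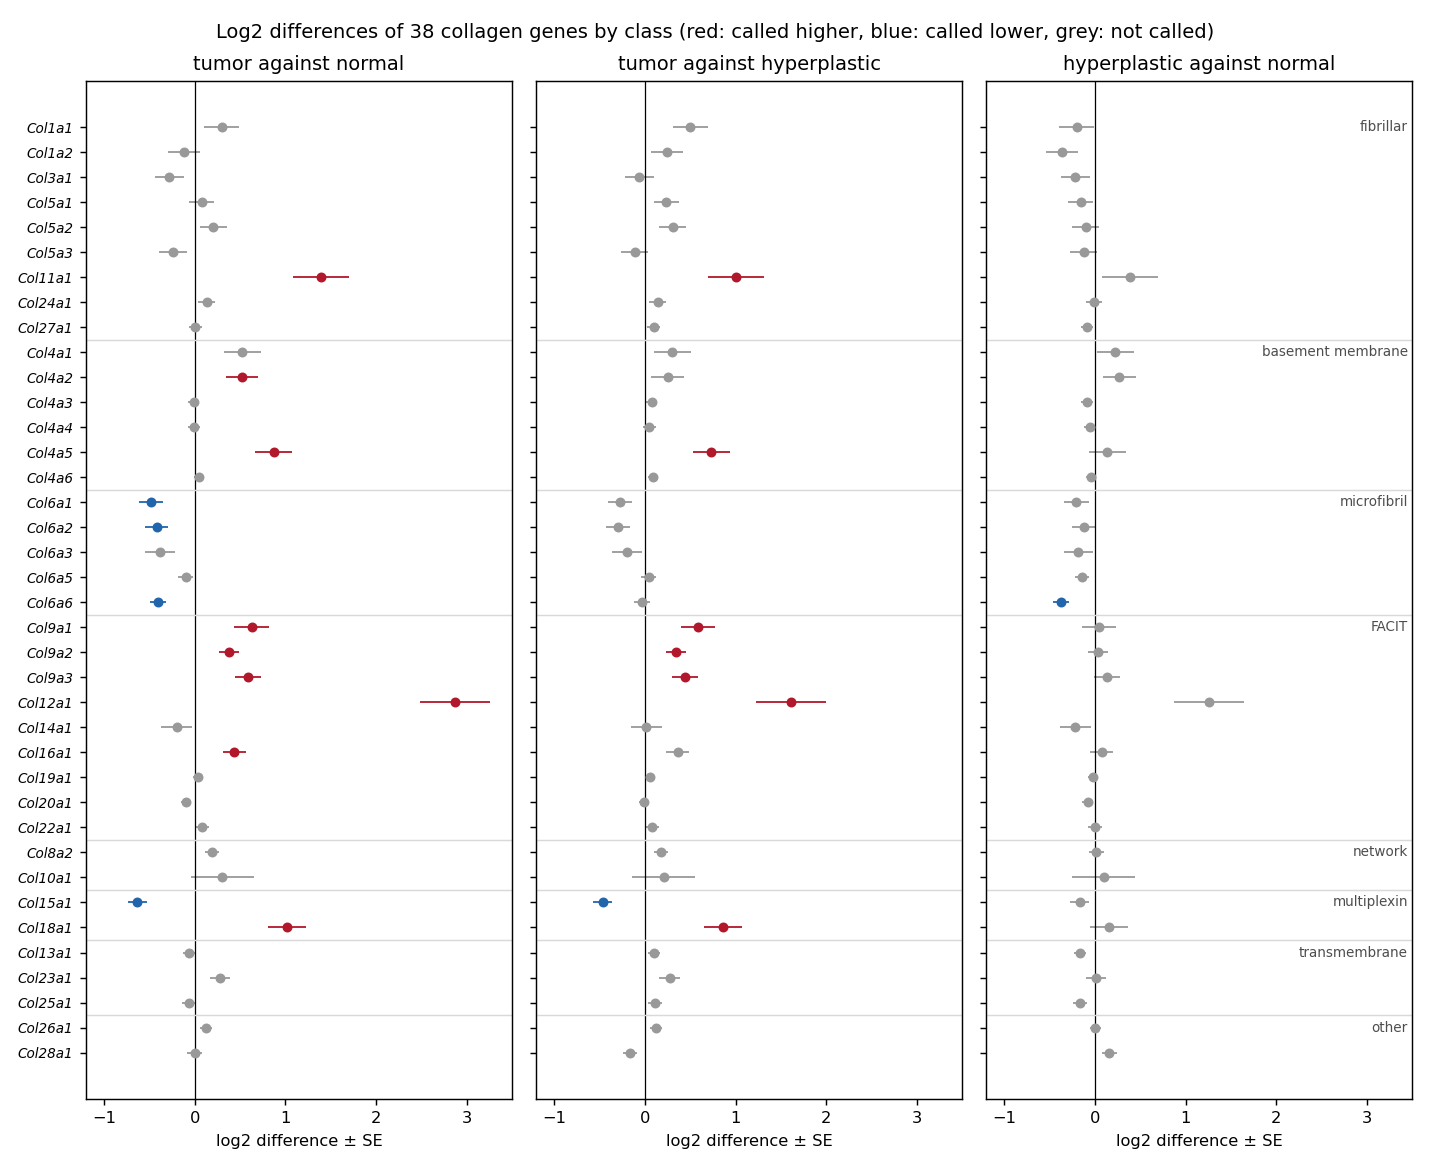
Log2 differences of group means (x axis, with SE from limma) of the 38 measured collagen genes (y axis, by class) in 3 comparisons of 6 against 6 arrays. Col12a1 stands farthest to the right in tumors, at 2.87 against normal glands and 1.61 against hyperplastic glands; centring on reference genes shifts every point of a panel by the same amount.

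The major fibrillar chains were not called in any comparison on the deposited scale with all arrays. Col1a1, which encodes the alpha 1 chain of type I collagen, had a lowest, median and highest value of 10.47, 11.19 and 11.78 in tumors, 10.15, 10.77 and 11.03 in hyperplastic glands, and 10.67, 10.94 and 11.14 in normal glands. The 3 groups overlapped, with tumors 3 and 6 above every other array and tumor 5 below every normal gland. Its difference was 0.30 (SE 0.19, adjusted p = 0.265) in tumors against normal glands and 0.50 (adjusted p = 0.077) in tumors against hyperplastic glands, and without tumor 5 the second was called (0.65, adjusted p = 0.0103). Col1a2, its partner chain, differed by -0.12 (adjusted p = 0.666) and Col3a1, the type III chain, by -0.28 (adjusted p = 0.214) in tumors against normal glands. Col3a1 was called lower in that comparison once tumors 3 and 6 were left out (-0.49, adjusted p = 0.0153) and under the reference-gene centring (-0.55, adjusted p = 0.00655), and Col1a2 was called lower under that centring in hyperplastic against normal glands (-0.55, adjusted p = 0.0312).

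Of the minor fibrillar chains, Col11a1 was the 1 called, while Col5a1, Col5a2, Col5a3, Col24a1 and Col27a1 differed by -0.24 to 0.21 in tumors against normal glands. Of these, Col5a3, a chain of type V collagen, differed by -0.24 and was called lower without tumor 3 (-0.40, adjusted p = 0.00482), with array weights and after centring. Col11a1 encodes the alpha 1 chain of type XI collagen, which sits inside fibrils, best known from cartilage. Its lowest, median and highest values were 6.79, 7.72 and 9.41 in tumors, 6.42, 6.72 and 7.54 in hyperplastic glands, and 6.25, 6.40 and 6.62 in normal glands. Every tumor lay above every normal gland, tumor 4 stood far above the rest, and hyperplastic gland 5 lay above tumors 3 and 6. It rose by 1.39 in tumors against normal glands (SE 0.31, 2.63-fold, adjusted p = 0.00178) and by 1.01 against hyperplastic glands (SE 0.31, adjusted p = 0.026), the second of which was lost without hyperplastic gland 1, 2 or 6 (adjusted p of 0.0608, 0.0522 and 0.0527). Chondrocyte markers summed to 10.08 to 11.23 log2 in tumors, highest in tumors 5 and 4, 9.95 to 10.54 in hyperplastic glands and 9.82 to 10.09 in normal glands, with 1 of 11 called, Sox9. Whether they bear on Col11a1 or on the type IX chains was not tested.

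The upstream sequences of a gene called higher, a gene called lower and 2 fibrillar genes that were not called are shown to set members that moved apart beside each other. They are the 150 bases before the annotated start in RefSeq (GRCm38.p6), with capitals marking GGGCGG (the GC box), CCAAT and TATAAA read on either strand. Col11a1 is at chr3:114030390-114030539, Col15a1, called lower in tumors, at chr4:47207862-47208011, Col1a2 at chr6:4505468-4505617 and Col3a1 at chr1:45311388-45311537, all on the plus strand.
Col11a1: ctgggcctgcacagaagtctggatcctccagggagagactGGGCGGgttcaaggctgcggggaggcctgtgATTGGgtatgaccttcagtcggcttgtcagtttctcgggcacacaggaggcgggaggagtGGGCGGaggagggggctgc
Col15a1: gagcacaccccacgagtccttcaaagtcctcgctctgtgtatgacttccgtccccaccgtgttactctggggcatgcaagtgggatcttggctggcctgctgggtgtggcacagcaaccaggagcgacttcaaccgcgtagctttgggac
Col1a2: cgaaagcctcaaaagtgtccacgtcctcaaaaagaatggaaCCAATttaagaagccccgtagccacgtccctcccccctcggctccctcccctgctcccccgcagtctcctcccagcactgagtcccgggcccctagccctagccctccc
Col3a1: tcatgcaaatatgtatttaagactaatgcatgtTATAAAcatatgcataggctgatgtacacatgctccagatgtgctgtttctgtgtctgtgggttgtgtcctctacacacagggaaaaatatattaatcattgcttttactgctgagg
Windows of 300 bases, from 250 before to 50 after a start, were held for 30 of the 38 members. These 30 genes had 33 windows, while Col12a1, Col14a1 and Col1a1 were among the members without any. The windows of Col4a1 and Col4a2 share 78 bases, so a match in that stretch counts in both. GGGCGG occurred in 19 of the 33, from 18 genes, where 35.7% of all 32851 windows held it. CCAAT occurred in 10 of the 33 (37.4% of all windows), TATAAA in 3 (13.6%), and TGANTCA, the AP-1 motif, in 1, of Col6a1 (7.81%). A match is a description of letters and not of binding.

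**Figure D2:**
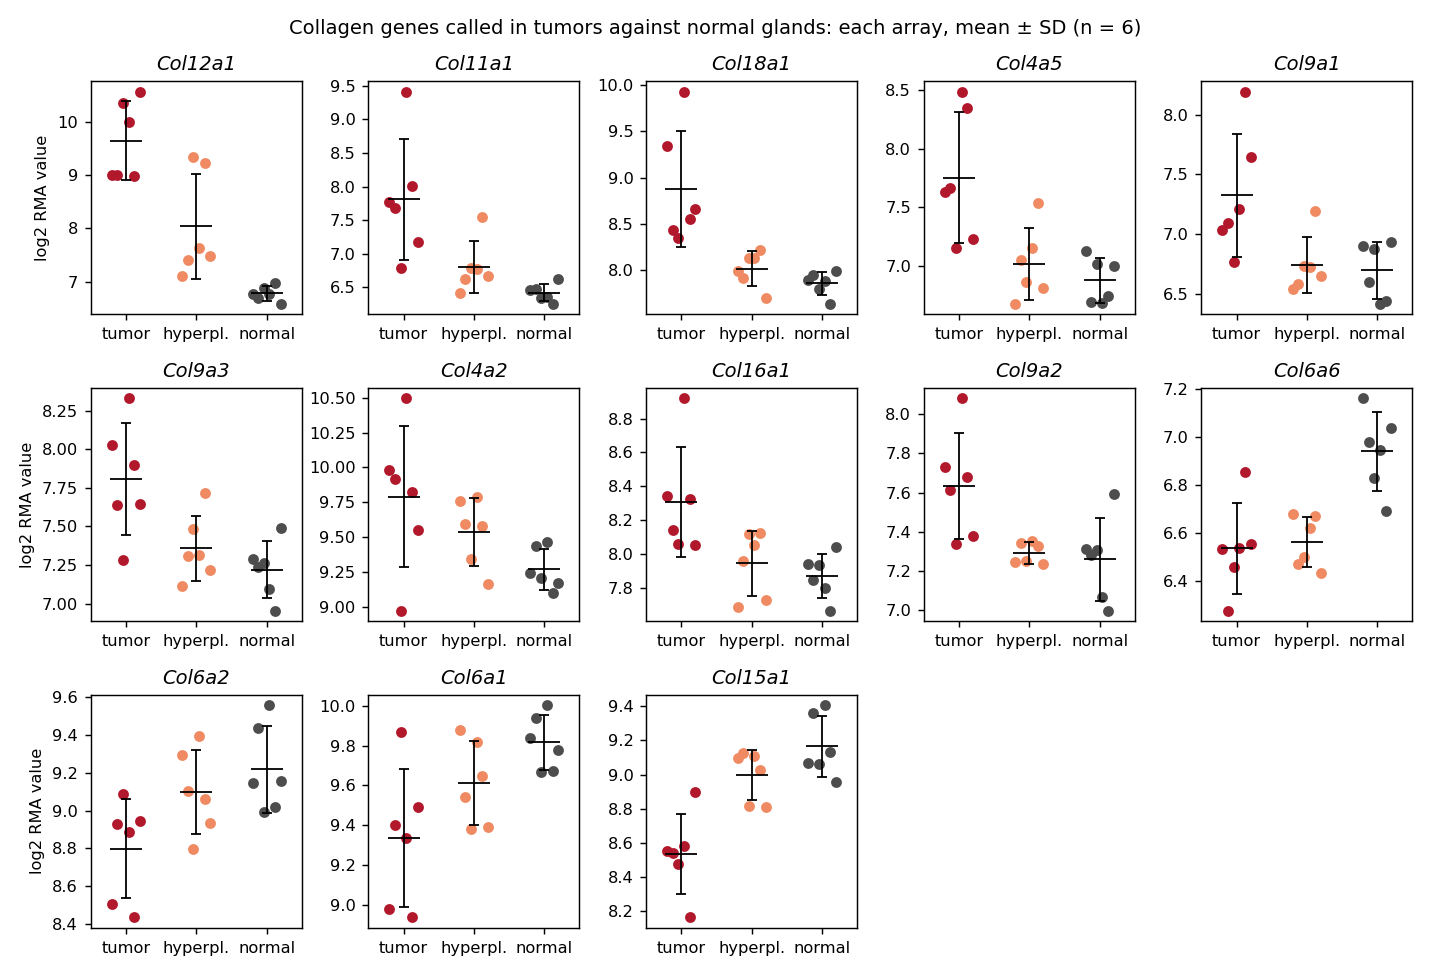
Log2 RMA values (y axes) of the 13 collagen genes called in tumors against normal glands, with a point per array and the mean ± SD of 6 arrays. Groups do not overlap between tumors and normal glands for Col12a1, Col11a1, Col18a1, Col4a5, Col16a1 and Col15a1; Col4a2, Col9a1, Col9a2, Col9a3 and Col16a1 are not called after centring on reference genes.

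Col12a1 showed the largest difference of the 38 genes in all 3 comparisons. It encodes type XII collagen, a FACIT that links fibrils to other matrix proteins. Its lowest, median and highest values were 8.98, 9.50 and 10.57 in tumors, 7.11, 7.56 and 9.35 in hyperplastic glands, and 6.59, 6.77 and 6.97 in normal glands. All tumors lay above all normal glands, and so did all hyperplastic glands, of which glands 3 and 5, at 9.35 and 9.23, were within the range of the tumors while the other 4 were at 7.11 to 7.64. The difference was 2.87 in tumors against normal glands (SE 0.38, 7.3-fold, adjusted p = 1.73e-05) and 1.61 against hyperplastic glands (SE 0.38, 3.06-fold, adjusted p = 0.00583). In hyperplastic against normal glands it was 1.26 (SE 0.38, adjusted p = 0.112) and was not called, although it passed with array weights (1.24, adjusted p = 0.0268) and with reference-gene centring (1.07, adjusted p = 0.0418). Basal epithelial markers were also highest among hyperplastic glands in glands 3 and 5, with sums of 12.46 and 12.33, against 11.40 to 11.96 in the other 4. The same glands were highest in Schwann cell markers (9.49 and 9.58, others up to 9.41) and collagen-degrading proteases (11.94 and 11.92, others up to 11.78). Tumor 3 had a basal sum of 10.19, below every normal gland, while its Col12a1 lay above all of them. The part of any of these lists was not tested.

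Type XIV collagen is the FACIT most like type XII. Its gene Col14a1 had 8.59, 9.54 and 9.79 in tumors, 9.01, 9.54 and 9.70 in hyperplastic glands, and 9.46, 9.56 and 9.93 in normal glands. The groups overlapped, tumor 3 was lowest of all arrays, and the difference in tumors against normal glands was -0.20 (SE 0.17, adjusted p = 0.422). The other FACIT genes called were the 3 chains of type IX, a cartilage collagen, and Col16a1. Col9a1 rose by 0.63 (adjusted p = 0.0166), Col9a2 by 0.38 (adjusted p = 0.0134), Col9a3 by 0.58 (adjusted p = 0.00419) and Col16a1 by 0.44 (adjusted p = 0.0126) in tumors against normal glands; none of the 4 passed after centring on reference genes. Col19a1, Col20a1 and Col22a1 lay between -0.09 and 0.08 in that comparison and were not called.

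The basement membrane genes split. Col4a2, whose product joins with that of Col4a1 in the common type IV network, had 8.97, 9.87 and 10.49 in tumors, 9.17, 9.59 and 9.79 in hyperplastic glands, and 9.10, 9.22 and 9.46 in normal glands. Tumor 3 was the lowest array of all and the other 5 tumors were above every normal gland. Col4a2 rose by 0.52 in tumors against normal glands (SE 0.18, adjusted p = 0.0343), a call lost without any 1 of tumors 1, 2, 4 and 5 or of normal glands 1, 3, 5 and 6 (adjusted p up to 0.0818) and under the centring (0.25, adjusted p = 0.226). Col4a1 differed by 0.53 (SE 0.20, adjusted p = 0.0588), not called, and by 0.72 without tumor 3 (adjusted p = 0.00184). Col4a5, a chain of the more restricted networks, ranged from 7.16 to 8.48 in tumors, 6.68 to 7.54 in hyperplastic glands and 6.69 to 7.13 in normal glands, and rose by 0.87 in tumors against normal glands (SE 0.21, adjusted p = 0.00316) and by 0.73 against hyperplastic glands (adjusted p = 0.0165; 0.0542 when only these 2 groups were fitted). Col4a3, Col4a4 and Col4a6 differed by -0.01 to 0.05 in tumors against normal glands.

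The multiplexins, collagens of the basement membrane zone whose C-terminal parts can be released as endostatin-like fragments, moved in opposite directions. Col18a1, the source of endostatin, had 8.35, 8.61 and 9.93 in tumors, 7.70, 8.06 and 8.22 in hyperplastic glands, and 7.64, 7.89 and 7.99 in normal glands. Every tumor lay above every array of both other groups, and tumors 4 and 1 were highest. It rose by 1.02 in tumors against normal glands (SE 0.21, 2.02-fold, adjusted p = 0.000894) and by 0.86 against hyperplastic glands (SE 0.21, adjusted p = 0.00608). Col15a1 had 8.16, 8.54 and 8.90 in tumors, 8.81, 9.06 and 9.13 in hyperplastic glands, and 8.96, 9.10 and 9.41 in normal glands. All tumors were below all normal glands, and tumor 6 alone reached into the hyperplastic range. It fell by 0.63 in tumors against normal glands (SE 0.11, adjusted p = 0.000146) and by 0.46 against hyperplastic glands (SE 0.11, adjusted p = 0.0042).

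Of the 5 microfibril genes, 3 fell in tumors against normal glands. Col6a1, a chain of the type VI trimer, had 8.94, 9.37 and 9.87 in tumors, 9.38, 9.59 and 9.88 in hyperplastic glands, and 9.67, 9.81 and 10.00 in normal glands. Tumor 3 alone lay within the range of the normal glands. It fell by 0.48 in tumors against normal glands (SE 0.13, adjusted p = 0.0102). Its partner Col6a2 fell by 0.42 (adjusted p = 0.0189; 0.0508 without normal gland 4), and Col6a3, the long chain of the trimer, differed by -0.38 (adjusted p = 0.0846) and was called without tumor 6 (-0.49, adjusted p = 0.0195). Col6a6 fell by 0.41 (adjusted p = 0.00151), Col6a5 differed by -0.10 (adjusted p = 0.401), and all 5 type VI genes were called lower after centring on reference genes. Several marker lists also fell in this comparison: fibroblast (8 of 12 called lower, 2 higher), adipocyte (10 of 10 lower), blood endothelial (11 of 11), T cell (8 of 8) and B cell (7 of 7). The part of any of them was not tested.

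The remaining classes held no other called gene. Col8a2, of the network class, had 6.81, 6.97 and 7.33 in tumors, 6.77, 6.82 and 6.94 in hyperplastic glands, and 6.68, 6.80 and 7.11 in normal glands, with a difference of 0.19 in tumors against normal glands (adjusted p = 0.0725) that passed without tumor 2 (adjusted p = 0.0295) or normal gland 6 (adjusted p = 0.0126) and turned to -0.07 under the centring. Col23a1, a membrane-spanning collagen, had 6.91, 7.12 and 7.65 in tumors, 6.90, 6.95 and 7.04 in hyperplastic glands, and 6.76, 6.95 and 7.22 in normal glands, with a difference of 0.28 (adjusted p = 0.0625). It passed without tumor 1, 2 or 6 or normal gland 6 (adjusted p of 0.0392, 0.0211, 0.0476 and 0.0293). Col26a1 had 6.50, 6.59 and 6.70 in tumors, 6.41, 6.47 and 6.52 in hyperplastic glands, and 6.22, 6.48 and 6.72 in normal glands, and its difference of 0.13 (adjusted p = 0.143) was called without normal gland 6 (0.18, adjusted p = 0.0128) and turned to -0.14 under the centring. All groups overlapped in these 3 genes. Col13a1, Col25a1 and Col28a1 differed by -0.06 to 0.00.

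Against hyperplastic glands, which share the exposure, 7 of the 38 genes were called higher in tumors (18.4%), where 11.9% of all genes were, and 1 lower (2.63%), Col15a1, where 8.57% of all genes were. Without overlap, Col18a1 alone was higher and 0 were lower, where 4.99% of all genes were higher and 4.05% lower. Those higher were Col12a1, Col11a1, Col18a1, Col4a5 and the type IX chains, whose differences were 0.59 for Col9a1, 0.34 for Col9a2 and 0.45 for Col9a3. The count of 7 was 3 when only these groups were fitted (Col12a1, Col18a1 and Col9a2), 3 without hyperplastic gland 1 or 6, 4 without tumor 4 or hyperplastic gland 2, and up to 10 without tumor 3, and each type IX call was lost without some single arrays, among them tumor 4 (adjusted p of 0.0504, 0.0744 and 0.0821). In hyperplastic against normal glands, 0 of the 38 genes were called higher, where 1.01% of all genes were, and 1 was called lower (2.63%), where 0.655% of all genes were. Col12a1 was the 1 member higher and Col6a6 the 1 lower without overlap, where 2.42% and 1.1% of all genes were, and 4 members had an unadjusted p under 0.05. The gene called lower, Col6a6, had 6.44 to 6.68 in hyperplastic glands and 6.69 to 7.16 in normal glands. It fell by 0.38 (SE 0.09, adjusted p = 0.0393), and the call was lost without any 1 hyperplastic gland or any normal gland but gland 5 (adjusted p up to 0.102). All 3 comparisons share groups, so they are not independent.

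**Figure D3:**
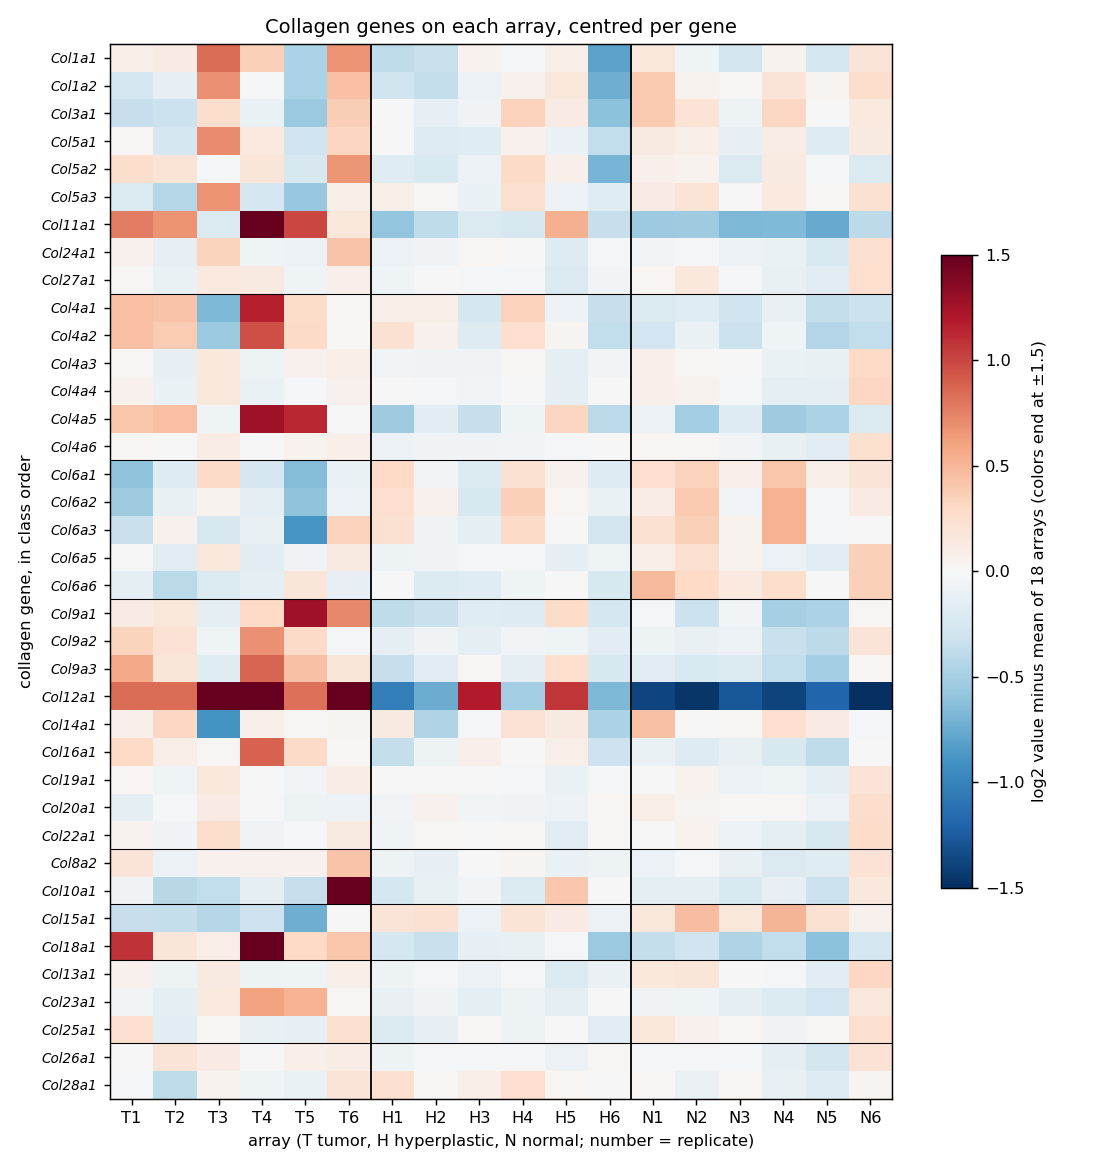
Log2 value minus the mean of 18 arrays (color, ending at ±1.5) for 38 collagen genes (rows, by class) on each array (columns, T tumor, H hyperplastic, N normal). Tumor 4 is darkest red in Col11a1, Col4a5 and Col18a1, tumor 3 is red in the major fibrillar genes and blue in Col4a1, Col4a2 and Col14a1, and Col10a1 is darkest red in tumor 6.

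The tumors varied more than the other groups. The SD was larger in tumors than in hyperplastic glands for 36 of 38 genes and than in normal glands for 28 of 38. The same was not counted over all genes, so these counts are not set apart from the rest of the array. Tumor 4 was the highest tumor in 7 of the 13 genes that differed from normal glands, and tumor 3 was the lowest in 7. Among the 9 fibrillar genes, tumor 3 was the highest tumor in 5 and tumor 5 the lowest in 6. Tumor 3 also had the highest fibroblast sum of the tumors, 13.33 against 12.59 to 12.84 in the other 5, and the highest macrophage marker sum, 13.27 against 11.53 to 12.22; the part of either was not tested. In normal glands, gland 6 was highest in 24 of the 37 genes above the detection level and gland 5 lowest in 22. These counts were not made over all genes either, so they are no result about collagens. Without normal gland 6, the median difference of all genes in tumors against normal glands was 0.064 in place of 0.044. Among normal glands, gland 6 had the lowest reference gene sum, 13.06, and gland 5 the highest, 13.28. Whether the pattern follows the arrays or the glands was not tested.

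Whether paired collagen genes changed unequally was asked within each array, as the log2 value of the first gene minus that of the second, in 5 pairs and 3 comparisons, with a two-sided exact permutation test that ran through every split of the arrays and adjustment over the 15 tests. Among these pairs only Col1a1 with Col1a2 and Col4a1 with Col4a2 encode chains of the same trimer. The smallest p it allows is 0.00216. Since 2 genes are read by different probes, the sign of a single difference has no meaning and only its shift between groups is read; centring of arrays does not change it. Col12a1 minus Col14a1 averaged 0.23 ± 1.03 in tumors, against -1.37 ± 0.94 in hyperplastic and -2.84 ± 0.20 in normal glands, with SD over 6 arrays. The value shifted by 3.07 in tumors against normal glands (adjusted exact p = 0.00649), by 1.60 against hyperplastic glands (adjusted exact p = 0.0406; lost without any 1 of tumors 3, 4 and 6 or hyperplastic glands 1, 2, 4 and 6, up to 0.0682) and by 1.47 in hyperplastic against normal glands (adjusted exact p = 0.00649), in which no array overlapped. In tumors against normal glands the ranges of the single genes already force full separation. The p there adds nothing to the call of Col12a1.

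Col18a1 minus Col15a1 was 0.34 ± 0.63 in tumors, against -0.98 ± 0.20 in hyperplastic and -1.30 ± 0.21 in normal glands. It shifted by 1.65 in tumors against normal glands and by 1.32 against hyperplastic glands (adjusted exact p = 0.00649 each), and by 0.33 in hyperplastic against normal glands (adjusted exact p = 0.0469; lost without any 1 of hyperplastic glands 1, 3, 4, 5 and 6 or normal glands 2, 3, 4 and 5, up to 0.0938). In tumors against normal glands neither gene overlapped, in opposite directions, which already forces full separation. Against hyperplastic glands the ranges of the single genes force it as well. Col18a1 was at least 8.35 in tumors and at most 8.22 in hyperplastic glands, and Col15a1 at most 8.90 and at least 8.81. The p-values of both comparisons thus repeat the calls of Col18a1 and Col15a1. Col1a1 minus Col1a2, the chains of the same type I trimer, was 0.51 ± 0.14 in tumors, against 0.26 ± 0.09 in hyperplastic and 0.09 ± 0.10 in normal glands. It shifted by 0.42 in tumors against normal glands (adjusted exact p = 0.00649), all 6 tumors above all 6 normal glands, by 0.25 against hyperplastic glands (adjusted exact p = 0.0162) and by 0.16 in hyperplastic against normal glands (adjusted exact p = 0.0232; 0.0568 without hyperplastic gland 3).

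Col4a1 and Col4a2 lie head to head on opposite strands, with annotated starts 21 bases apart on chromosome 8. Their difference was -0.10 ± 0.10 in tumors, against -0.15 ± 0.09 in hyperplastic and -0.10 ± 0.07 in normal glands, and no shift was detected, with values of 0.00 in tumors against normal glands (adjusted exact p = 0.918), 0.05 against hyperplastic glands (adjusted exact p = 0.465) and -0.05 in hyperplastic against normal glands (adjusted exact p = 0.403). It stayed within -0.23 to 0.08 in tumors and -0.20 to -0.04 in normal glands. Col5a1 minus Col1a1, a minor against the major chain of type I fibrils, shifted by -0.22 in tumors against normal glands (adjusted exact p = 0.0682), which passed only without tumor 5 (-0.29).

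**Figure D4:**
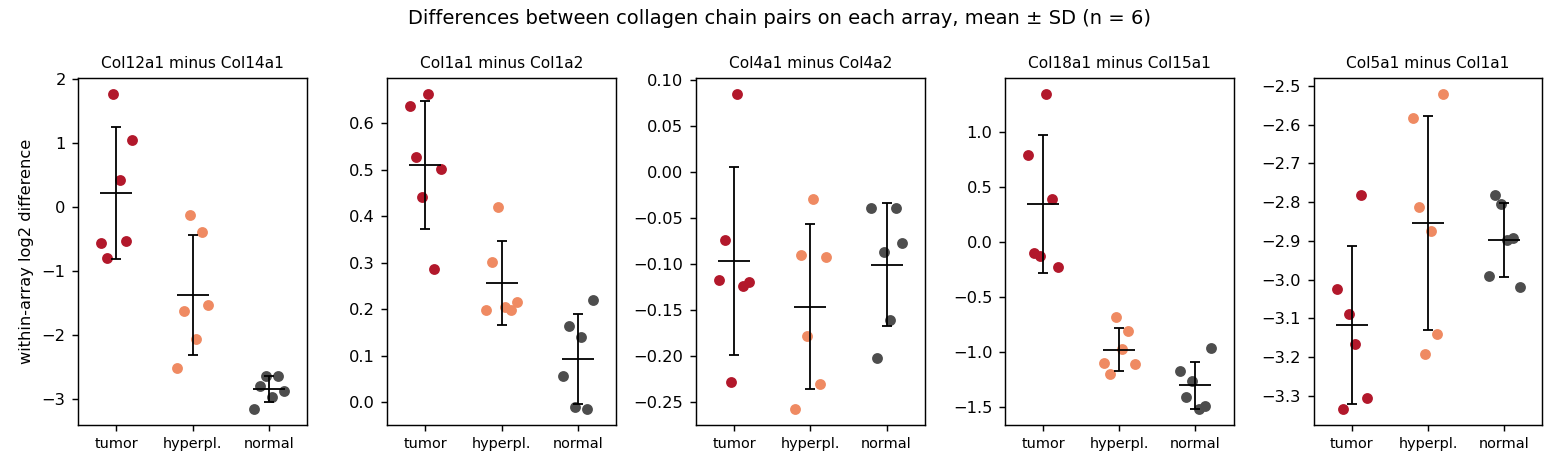
Within-array log2 difference of 5 pairs of collagen genes (y axes), with a point per array and the mean ± SD of 6 arrays. Tumors lie above normal glands without overlap for Col12a1 minus Col14a1, Col1a1 minus Col1a2 and Col18a1 minus Col15a1, and all groups overlap for Col4a1 minus Col4a2.

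Genes that modify, export and bind collagen were read from 7 lists written from textbook knowledge, 65 of whose 76 genes were measured. The lists were chosen with earlier results of these data known, so their counts describe these data and are no independent test. Of 18 measured folding and hydroxylation genes, 12 were called higher and 0 lower in tumors against normal glands, where 19.5% of all genes were called higher and 12.7% lower, with a median difference of 0.56 beside 0.04 over all genes; after centring, 10 were called higher and 2 lower. Plod2, a lysyl hydroxylase that prepares telopeptide lysines for cross-links, had 7.90, 8.72 and 10.15 in tumors and 6.51, 6.90 and 7.08 in normal glands, with no overlap, and rose by 1.96 (SE 0.32, adjusted p = 0.000138). The catalytic subunits of prolyl 4-hydroxylase rose by 0.99 (P4ha1), 0.74 (P4ha2) and 0.93 (P4ha3), and Serpinh1, the collagen chaperone HSP47, by 0.63 (adjusted p = 0.000151). Against hyperplastic glands 13 of the 18 were called higher, where 11.9% of all genes were, Plod2 among them (1.70, adjusted p = 0.00116), and in hyperplastic against normal glands 0 were called, 1 having an unadjusted p under 0.05.

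The other 6 lists held few genes each, so that their counts are not set apart from those all-gene shares. Of 8 secretion genes, 3 were called higher in tumors against normal glands and 0 lower: Sec13 (0.46), Sec23a (0.38) and Sec31a (0.35), parts of the COPII coat that carries procollagen out of the endoplasmic reticulum; after centring, the median of this list turned to -0.06 from 0.21 with 1 called higher, Sec13, and 2 called lower. Sec23a was lost without tumor 1, 3 or 4 or normal gland 6 (adjusted p of 0.054, 0.051, 0.0544 and 0.0512). Of 7 propeptide processing genes, 2 were called higher and 2 lower. Pcolce2, an enhancer of procollagen C-proteinase, had 6.45, 7.11 and 7.47 in tumors and 8.99, 9.18 and 9.41 in normal glands, and fell by 2.13 (SE 0.17, adjusted p = 8.72e-08). The C-proteinases parted, Bmp1 with a rise of 0.59 (adjusted p = 0.0249; 0.0511 without normal gland 3 and 0.0512 without normal gland 5) and Tll1 with a fall of 0.57 (adjusted p = 0.00984). Furin, a proprotein convertase, rose by 0.35 (adjusted p = 0.027), and its call was lost without tumor 3 or 4 or normal gland 2, 4 or 5 (adjusted p of 0.0618, 0.0606, 0.0536, 0.0507 and 0.051). Neither Bmp1 nor Furin passed after centring.

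**Figure D5:**
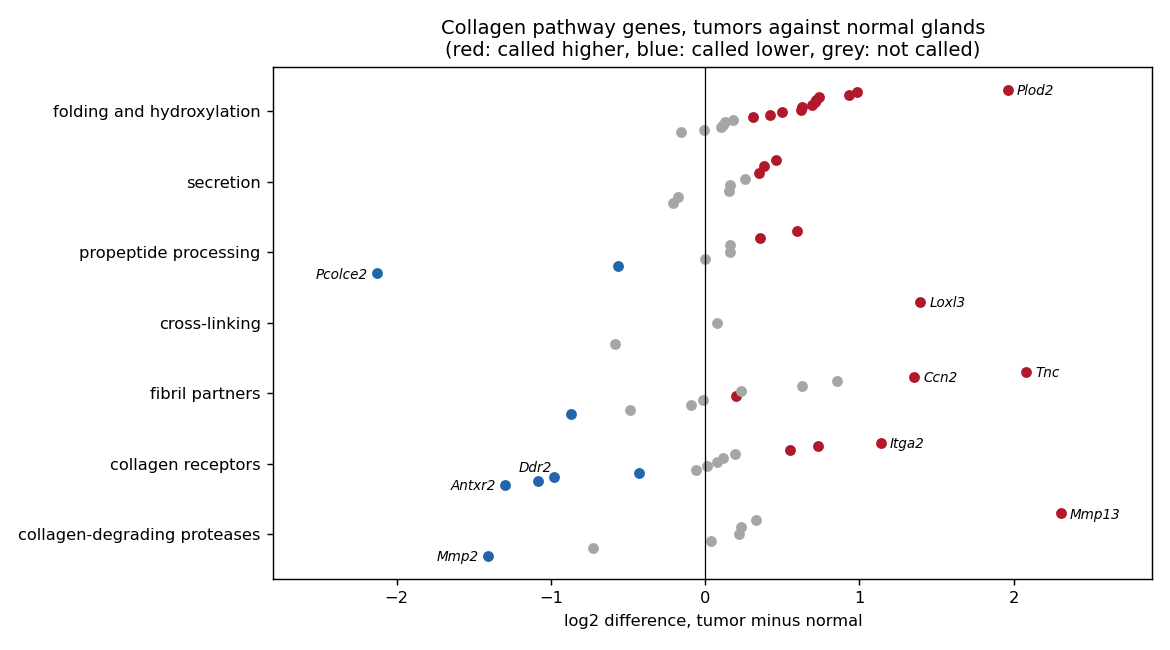
Log2 difference, tumors minus normal glands (x axis), of each measured gene in 7 collagen pathway lists (y axis), colored by call and spread vertically within a list for legibility; genes beyond 1 in either direction are named, and Mmp13 is plotted against normal glands that were below the detection level. Folding and hydroxylation genes called in tumors are all to the right of 0 on the deposited scale, while after centring on reference genes 2 of the 18 are called lower and the secretion median turns below 0.

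Of 3 measured cross-linking genes, Loxl3, a lysyl oxidase relative, rose by 1.39 in tumors against normal glands (SE 0.25, adjusted p = 0.000303), and Lox was not analysed here. Among 10 fibril partners, Tnc, the gene of tenascin C, rose by 2.08 (adjusted p = 0.000227) and Ccn2, a matricellular growth factor, by 1.36 (adjusted p = 0.000756). Postn, the gene of periostin, fell by 0.87 (adjusted p = 0.00864), and Sparc, a collagen-binding glycoprotein, rose by 0.20 (adjusted p = 0.0378), a call lost without any 1 of tumors 3, 4 and 5 or of normal glands 2, 3, 5 and 6 (adjusted p up to 0.091) and turned to -0.06 under the centring. Among 12 collagen receptors, 3 were called higher and 4 lower. Itga2, the alpha subunit of an epithelial collagen integrin, rose by 1.14 (adjusted p = 0.00127), while Itga11, its stromal relative, fell by 0.98 (adjusted p = 3.72e-05), Ddr2, a fibrillar collagen receptor kinase, by 1.08 (adjusted p = 0.0137) and Antxr2, a receptor for type VI collagen, by 1.30 (adjusted p = 3.63e-06). Ddr1 was not analysed here.

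Of 7 collagen-degrading proteases, Mmp2, a gelatinase, had 8.71, 9.76 and 10.65 in tumors and 10.89, 11.16 and 11.57 in normal glands, and fell by 1.41 (SE 0.28, adjusted p = 0.000648). Mmp13, the main interstitial collagenase of the mouse, had 5.00, 7.60 and 9.49 in tumors and 4.84, 4.96 and 5.10 in normal glands, whose values were below the detection level. It was called higher (adjusted p = 0.0156), with no size given against values at background, and was not called without tumors 3 and 6 (adjusted p = 0.105).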

How the data were processed

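RNA from 18 mammary samples was hybridised to Affymetrix whole-transcript arrays. The authors deposited log2 values made with robust multi-array averaging (RMA), that is background correction, quantile normalization and median polish, and the submitters' notes name Expression Console, RMA and Partek. Versions are not given there. A second deposited table was identical at all 58776 of its entries. Quantile normalization gives arrays a like distribution, so total RNA per cell was not measurable, and RMA compresses differences near background. Array medians lay between 5.28 and 5.49.

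Of 58803 transcript clusters, 27309 carried 1 symbol in the platform annotation, and 1957 with several were left out; 19869 matched a RefSeq gene ID. Where a gene had several clusters, in 198 genes, the one with the highest mean was used. Autosomes after 16 were largely not analysed here. Groups came from sample titles. limma 3.58.1 in R 4.3.3 was fitted with 3 group means and no covariate, and its code was tested on simulated data. Chain pairs were tested in Python 3.11.15 by exact permutation. Lowest, median and highest values are given for members called with an absolute log2 difference of at least 1 and for the member with the highest mean of each class; from each pathway list, up to 4 called genes with the largest difference are named, plus Lox, Serpinh1, Ddr1 and Ddr2. The alternatives left out each array, used a replicate block, centring on reference genes, a filter at the detection level, the mean of a gene's clusters, an intensity trend, array weights, only the groups compared, or the methods' threshold, and were extended after seeing the data by leaving out tumors 3 and 6, with or without hyperplastic gland 3. Members and lists were chosen with earlier results of these data known.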

Additional observations from a re-analysis of the deposited data

Results flagged for a closer look

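In 9 of 114 sets of 6 arrays (38 genes in 3 groups), the highest or lowest array stood apart from the nearest other by more of the group's range than Dixon's 95% critical value, which chance gives in about 1 of 20 such sets. Col10a1, the type X collagen of hypertrophic cartilage, was at 7.53 in tumor 6, and the next tumor was at 5.12, below the detection level; tumor 6 had the lowest chondrocyte marker sum of the tumors, 10.08. Col14a1 was lowest in tumor 3, at 8.59, and Col16a1 highest in tumor 4, at 8.92. The other 6 were all in hyperplastic gland 5, which was highest in Col11a1 (7.54) and Col9a1 (7.20) and lowest in Col27a1 (7.06), Col4a4 (6.30), Col22a1 (6.18) and Col19a1 (5.27).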

How the results depend on the processing

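The deposited scale decided most. Centring arrays on 13 reference genes gave 4 higher and 18 lower collagen genes in tumors against normal glands (9 and 4 on the deposited scale), 4 and 2 in tumors against hyperplastic glands (7 and 1) and 1 and 11 in hyperplastic against normal glands (0 and 1), and 17 and 14 pathway genes lower in tumors against normal glands and in hyperplastic against normal glands (8 and 1). The share of all calls that were higher became 10.5% in place of 60.6% in tumors against normal glands, 34.4% in place of 58.2% in tumors against hyperplastic glands, and 1.9% in place of 60.8% in hyperplastic against normal glands (141 higher and 7241 lower). By construction a constant is subtracted in each comparison, so that small differences changed sign: in tumors against normal glands Col5a1 (-0.19), Col8a2 (-0.075), Col26a1 (-0.14) and Sparc (-0.064); in tumors against hyperplastic glands Col14a1 (-0.067) and Sparc (-0.068); in hyperplastic against normal glands Col4a5 (-0.049), Col9a1 (-0.14), Col9a2 (-0.15), Col9a3 (-0.048), Col16a1 (-0.11), Col8a2 (-0.17), Col18a1 (-0.028), Col23a1 (-0.18), Col26a1 (-0.18), Sec13 (-0.0016), Sec23a (-0.15; -0.016 with array weights), Sec31a (-0.14), Furin (-0.085) and Serpinh1 (-0.028). Without tumors 3 and 6, collagen genes called lower were 7 in tumors against normal glands and 5 in tumors against hyperplastic glands, and the same counts held without hyperplastic gland 3 as well, which left 0 called lower in hyperplastic against normal glands; Col5a1 turned to -0.12 against normal glands in both, Col1a2 to -0.016 in tumors against hyperplastic glands without the tumors alone, and Sparc to -0.016 with hyperplastic gland 3 left out too. The methods' threshold (an absolute log2 change over 2 at an unadjusted p under 0.05) left 1 collagen gene higher, Col12a1, and 0 lower in tumors against normal glands, and 0 in either direction in tumors against hyperplastic glands and 0 lower in hyperplastic against normal glands. Fitting only the groups compared left 3 higher in tumors against hyperplastic glands; array weights gave 1 higher in hyperplastic against normal glands, and the filter at the detection level 2 pathway genes lower there.

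Leaving out 1 array gave 3 to 10 collagen genes higher and 1 to 2 lower in tumors against hyperplastic glands and 0 to 1 lower in hyperplastic against normal glands, with 0 to 2 pathway genes lower there. In the chain pairs it gave shifts of 1.29 to 1.85 for Col12a1 minus Col14a1 in tumors against hyperplastic glands (adjusted exact p up to 0.0682), 0.13 to 0.19 for Col1a1 minus Col1a2 (adjusted exact p up to 0.0568) and 0.27 to 0.39 for Col18a1 minus Col15a1 (adjusted exact p up to 0.0938) in hyperplastic against normal glands, -0.29 to -0.18 for Col5a1 minus Col1a1 and -0.032 to 0.031 for Col4a1 minus Col4a2 in tumors against normal glands, and -0.023 to 0.11 for Col5a1 minus Col1a1 in hyperplastic against normal glands. Single genes near 0 also changed sign: Col3a1 (-0.17 to 0.026), Col6a6 (-0.091 to 0.025), Col14a1 (-0.064 to 0.18) and Sparc (-0.029 to 0.049) in tumors against hyperplastic glands, Col5a1 (-0.040 to 0.16) in tumors against normal glands, and Col9a1 (-0.048 to 0.092), Col9a2 (-0.020 to 0.10), Col8a2 (-0.015 to 0.071), Col23a1 (-0.030 to 0.06), Col26a1 (-0.043 to 0.056) and Sec23a (-0.035 to 0.07) in hyperplastic against normal glands.

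Same-numbered samples had correlations of their deviations of -0.19 to 0.41, not all over 0.1. The main fit did not pair samples by number, and these correlations do not settle whether a number marks shared handling. With the replicate number as a block, 0 collagen genes and 2 pathway genes were lower in hyperplastic against normal glands. In tumors against hyperplastic glands 5 collagen genes were higher, with Col9a2 (adjusted p = 0.0665) and Col9a3 (0.0711) lost, and in tumors against normal glands 10 were, with Col4a1 gained (0.526, adjusted p = 0.0163). In the chain pairs the block leaves 64 sign flips with a smallest p of 0.0312, and no pair passed: shifts stayed at 3.07, 1.60 and 1.47 for Col12a1 minus Col14a1 (adjusted exact p of 0.0781, 0.117 and 0.0781), 0.42, 0.25 and 0.16 for Col1a1 minus Col1a2 and 1.65, 1.32 and 0.33 for Col18a1 minus Col15a1, in tumors against normal glands, tumors against hyperplastic glands and hyperplastic against normal glands, which says nothing of a weaker effect. Every measured collagen gene had 1 cluster, so taking the mean of a gene's clusters could not change its values and is no check of them. The intensity trend moved no count of collagen genes by over 1.5 times. Causes were not tested.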
